A study of Mus musculus with 8 samples.

Results

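The genes described here encode splicing factors and spliceosome proteins. They are 40 mouse genes, chosen by name, and were read on an array that names 19406 genes. 39 of them have a probeset with their current or older symbol (97 probesets of 46643), and 36 have at least 1 probeset that could be tested (60 probesets). RNA of 8 samples was hybridised to Illumina Sentrix-6 mouse arrays. The samples come from a podocyte line of the mouse, MPC-5, which grows through a temperature-sensitive T antigen and which stably expressed WT1(+KTS) with a C-terminal tag containing the IgG binding domain of protein A. WT1(+KTS) is the splice form of the Wilms tumor protein with an insert of a lysine, a threonine and a serine between its zinc fingers. The cells were propagated at 33°C and left to differentiate at 37°C over 14 days. There are 4 inputs, which are whole extracts, and 4 eluates, released by TEV protease from IgG beads to which the same kind of extract had been bound. All 8 arrays come from cells with the tagged protein. On these arrays alone, RNA held by WT1(+KTS) cannot be told apart from RNA held by the beads or by other eluate material. By quantitative RT-PCR the study found the mRNA of the myosin gene Myh10 enriched from cells with the empty vector too. It reports that the enrichment did not depend on WT1(+KTS). For that check it names Myh10 and Dbn1, but no splicing gene. The same mass of RNA, 650 ng, was amplified and labelled from every sample, and a fold change between the fractions is therefore a change in a transcript's share of the labelled RNA, not in its amount.

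The spliceosome removes introns from pre-mRNA. The U2 snRNP recognises the branch point through the SF3A and SF3B complexes after U2AF has bound the polypyrimidine tract, and the U4/U6.U5 tri-snRNP then joins and is rearranged by RNA helicases into the catalytic machine, with Prp8 at its centre. SR proteins bind exonic sequences and promote the use of nearby splice sites, while hnRNP proteins coat nascent transcripts and often oppose them. The +KTS form of WT1 is known to colocalise with splicing factors in nuclear speckles and to bind U2AF2, and WTAP was named as a protein that binds WT1. The assay reads the mRNAs that encode these proteins, not the proteins.

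Each value below is the authors' signal on 1 array, and a log2 fold change is the mean log2 signal of the 4 eluates minus that of the 4 inputs. Only probesets that reached a signal of 100 in 3 or more of the 4 eluates were tested. The test is limma's moderated test over all 13902 such probesets, with the replicate number as a block, as the study's methods compare pulldowns with their inputs in pairs, and a Benjamini-Hochberg adjusted p of 0.15 as the threshold, the study's FDR of 15%. Where a gene has more than 1 tested probeset, the brightest over the 8 arrays by mean log2 signal stands for it. The median signal over all probesets ran from 64.9 to 84.6 among the arrays. Their first principal component, 56.7% of the variance, did not separate the fractions but parted inputs 1 and 2 and eluates 1 and 4, called set A here, from inputs 3 and 4 and eluates 2 and 3, called set B. The labels do not say what these sets are, and replicate numbers 2 and 4 each join arrays of both sets. Myh10, the myosin heavy chain that led the reference genes, was 9.38-fold higher in the eluates (adjusted p = 0.000105, limma), and Gapdh, a glycolytic enzyme, differed by 0.11 on the log2 scale (adjusted p = 0.927). The cell type was checked against its markers: 9 of the 21 podocyte markers on the array were tested, among them Synpo and Podxl, while Wt1 and Nphs1 did not meet the filter, and whether the Wt1 probesets read the tagged transcript is not known. The summed signal of the podocyte markers was 25377 to 42532 in the inputs and 47033 to 81384 in the eluates. Bright genes weigh most in a sum, and the list holds Nes and Actn4, which the study reports as enriched. Of the 9 tested podocyte markers 2 were called higher, and their log2 fold changes ran from -0.14 to 2.32 with a median of 0.24. The sums of the endothelial, mesangial and stromal, tubular and leukocyte lists overlapped between the fractions. The mesangial and stromal sum ran from 3320 to 15781 in the inputs and from 3451 to 16470.5 in the eluates. The tubular sum ran from 3205 to 15750 in the inputs and from 3209 to 15010 in the eluates. Both thus differed widely among the arrays of a single fraction. The part of these transcripts in the results below was not tested. Of the markers on the array, 3 of 8 endothelial, 4 of 6 mesangial and stromal, 3 of 9 tubular and 0 of 4 leukocyte genes were tested.

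Transcripts of 2 members, Snrnp200 and Prpf8, were called higher in the eluates in this fit, and no member was called lower. Both encode large proteins at the heart of the U5 snRNP, but protein size was not compared with the fold changes here. These are 2 of 36 tested members, where 1.08% of all 8674 tested genes were called higher and 0.0115% lower. The log2 fold changes of the 36 members ran from -0.32 to 0.85 with a median of 0.21, and 29 of them were above 0. Over all tested genes the median was 0.00, 50.2% were above 0, and the 5th and 95th percentiles were -0.39 and 0.46. At an unadjusted p under 0.05, 8 of the 36 members passed, against 10.1% of all tested genes. In 5 members all 4 eluates lay above all 4 inputs (Snrnp200, Prpf8, Sf3b3, Dhx38 and Hnrnpm), against 5.29% of all tested genes, and in 1, Srsf10, all eluates lay below all inputs, against 4.88%.

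The counts of calls depended on the block. With no replicate block, 6 members were called higher (Eftud2, Sf3b3, Dhx38 and Hnrnpm joined the first pair) and none lower, where 3.8% of all genes were called higher and 2.43% lower. With the set of arrays as the block, 16 members were called higher and 1 lower, against 15.5% and 14.6% of all genes. The sets were read from these arrays, and the p-values of that fit do not account for this choice. The block does not move a fold change when all 8 arrays are used.

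**Figure D1:**
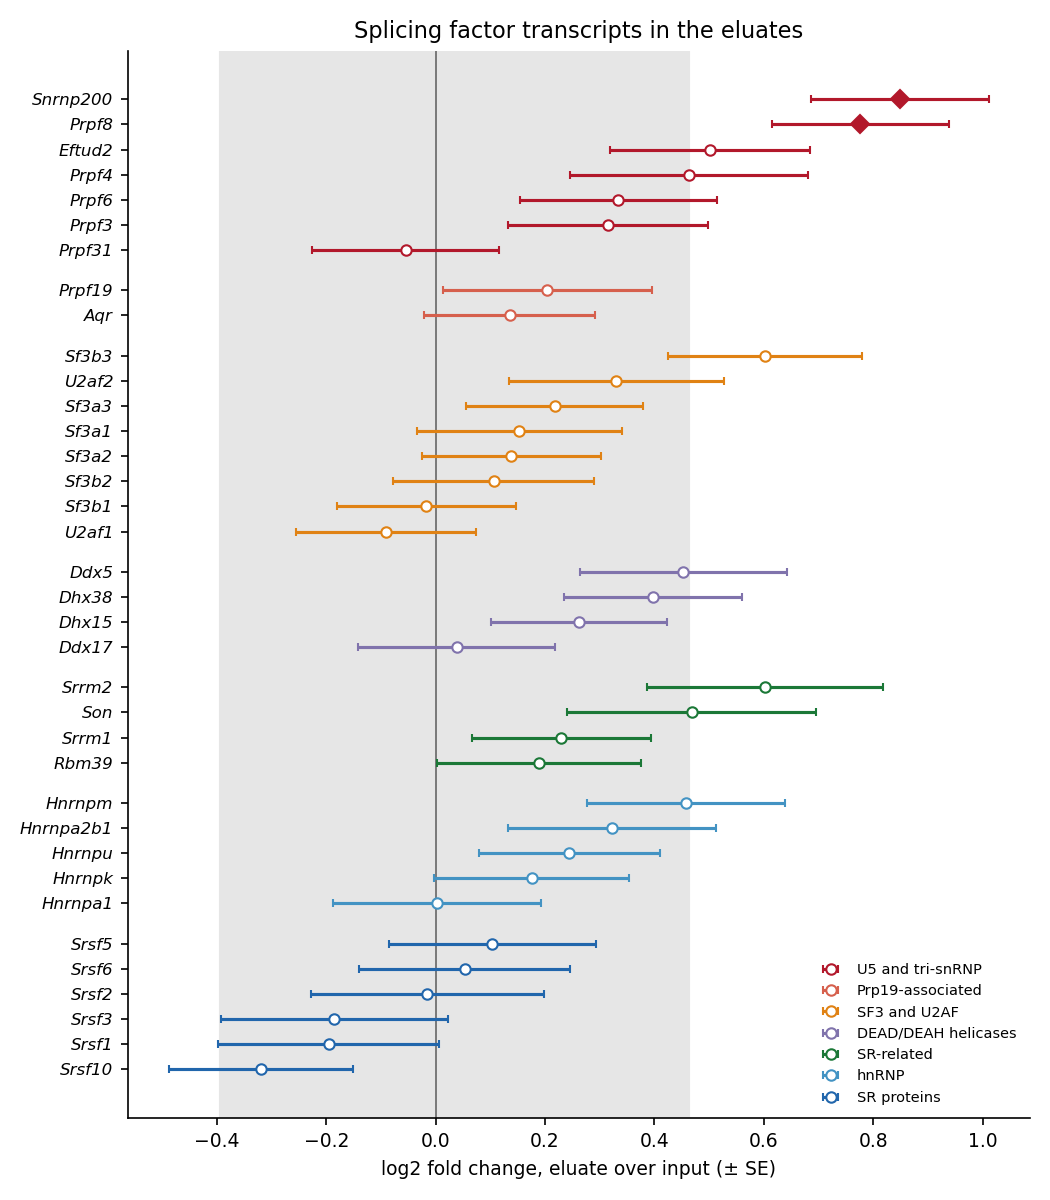
Log2 fold change of each of the 36 tested members, eluate over input, at its brightest tested probeset, with bars of ± SE from limma (4 arrays in each fraction). Filled diamonds mark the 2 members past an adjusted p of 0.15, Snrnp200 and Prpf8, and the grey band spans the 5th to the 95th percentile of all 8674 tested genes. The U5 and tri-snRNP genes at the top reach 0.85, and the SR proteins at the bottom lie between -0.32 and 0.10.

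Among the U5 and tri-snRNP genes, 7 of 8 were tested. Their median log2 fold change was 0.46, 6 were above 0, and 2 were called higher. Snrnp200 encodes Brr2, the helicase that unwinds the U4/U6 duplex. It read 566, 586, 624 and 558 on inputs 1 to 4 and 980.5, 1264, 995 and 984 on eluates 1 to 4. The lowest eluate stood well above the highest input, and eluate 2 stood apart from the other 3 eluates. The difference was 0.85 ± 0.16 on the log2 scale (SE; 95% interval 0.48 to 1.21), a 1.8-fold higher signal, with an adjusted p of 0.0697 (limma). It was 0.77 within set A and 0.93 within set B. The call was lost without replicate number 1 (adjusted p = 0.468) or without replicate number 3 (adjusted p = 0.413), and over all alternatives the adjusted p ran from 9.69e-07 to 0.468. The log2 fold change was 0.87 without number 1 and 0.91 without number 3. Over all probesets, those called higher fell from 152 to 66 and 53 in the same fits.

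Prpf8 encodes the scaffold that holds the catalytic RNA core of the spliceosome. Its signal was 1974, 2077, 1939 and 1846 in the inputs and 3094, 3693, 2984 and 3704 in the eluates. The fractions did not overlap, and the inputs differed little among themselves (mean log2 signal 10.93 ± 0.07, SD, n = 4, against 11.71 ± 0.17 in the eluates). The log2 fold change was 0.78 ± 0.16 (95% interval 0.41 to 1.14), with an adjusted p of 0.101 (limma), and it was 0.74 within set A and 0.81 within set B. This call, too, was lost without replicate number 1 (adjusted p = 0.555) or 3 (adjusted p = 0.533), in a range over all alternatives of 5.55e-06 to 0.555. The log2 fold change was 0.82 without number 1 and 0.83 without number 3. A second, dim Prpf8 probeset, at 83.8 to 120 and not tested, gave 0.04.

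Eftud2 encodes the GTPase of the U5 snRNP, a relative of the ribosomal translocase. Its 2 tested probesets gave 0.50 and 0.45. At the brighter one the signal was 2091, 1697, 1693 and 1593 in the inputs and 2374, 2689, 1995 and 3017 in the eluates, so that eluate 3 lay below input 1 and the fractions overlapped (adjusted p = 0.39, limma). The tri-snRNP scaffold Prpf6 gave 0.33 and overlapped as well. The U4/U6 proteins Prpf3 and Prpf4, which bind each other, gave 0.32 and 0.46 at their brightest probesets, and the second Prpf4 probeset gave 0.47. The 4 tested probesets of Prpf3 ran from 0.11 to 0.48. None of these was called. Prpf31, another U4/U6 protein, differed from the rest of the group: its 2 tested probesets stood near the minimum of 100 and gave -0.06 and 0.05, and another, at 98.6 to 213.7 in the inputs and 82.3 to 142 in the eluates, gave -0.44 but did not meet the filter, which looks at the eluates alone. Ddx23, a helicase needed for tri-snRNP entry, has a single probeset at 80.0 to 124 and was not tested.

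**Figure D2:**
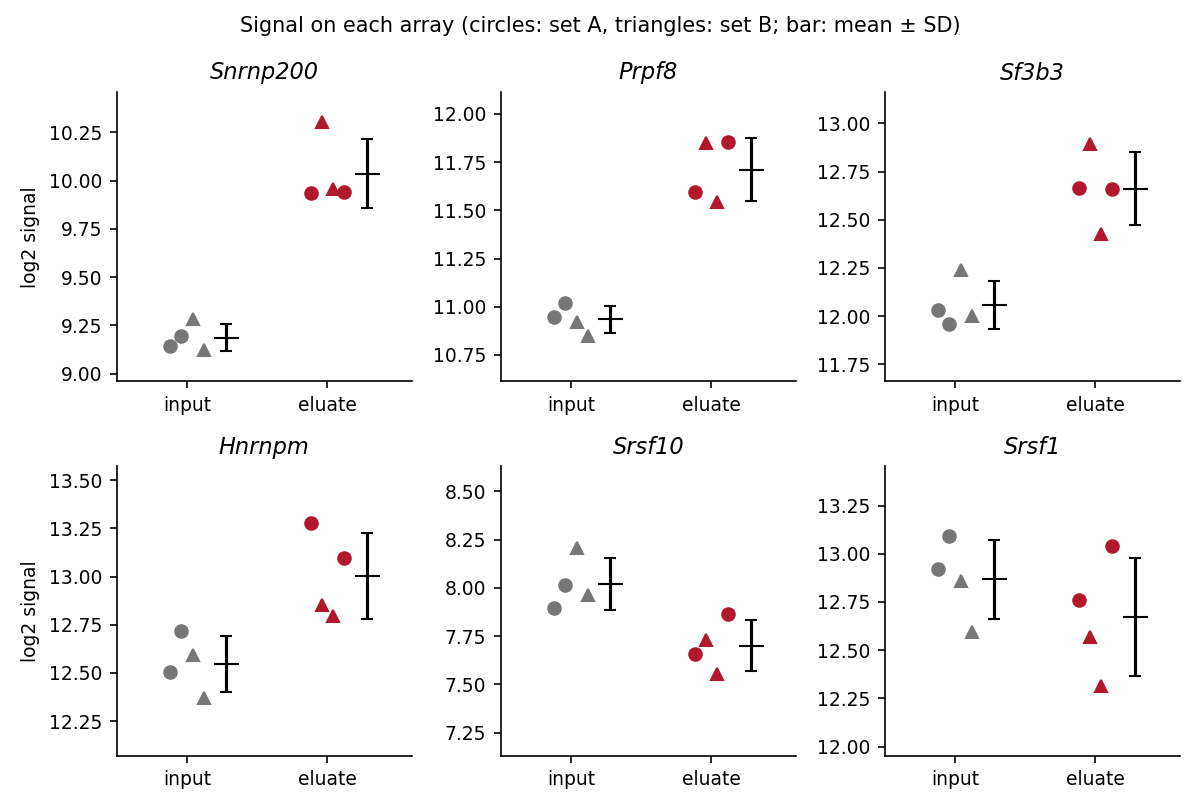
Log2 signal of 6 members on each of the 8 arrays, grey for inputs and red for eluates, with circles for set A, triangles for set B and a bar for the mean ± SD of 4 arrays. The vertical axis differs between panels. Snrnp200, Prpf8, Sf3b3 and Hnrnpm have all eluates above all inputs, Srsf10 has all eluates below all inputs, and in Srsf1 the fractions overlap.

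The SF3 and U2AF genes, all 8 of them tested, had a median log2 fold change of 0.15, and none was called. Sf3b3, which encodes a large scaffold of WD40-like repeats in SF3B, stood above the others. It read 4191, 3979, 4843 and 4104 in the inputs and 6503, 7595, 5501 and 6475 in the eluates. The fractions did not overlap, yet the log2 fold change of 0.60 ± 0.18 did not pass (adjusted p = 0.298, limma). It passed with no replicate block (adjusted p = 0.0586) and over all alternatives the adjusted p ran from 0.000404 to 1. Sf3b1, which encodes the protein that clamps the branch point helix, could be read only at a dim probeset, with 116, 111, 113 and 111 in the inputs and 116, 99.5, 101 and 132 in the eluates, and its log2 fold change of -0.02 turned to 0.03 without replicate number 2 or 3. Sf3b2, a partner of Sf3b1 in the complex, read 10414, 11637, 10370.5 and 9009.9 in the inputs and 12689, 10339, 9001 and 12872 in the eluates. Its eluates 1 and 4, both of set A, were high and eluates 2 and 3 were not, and the log2 fold change was 0.11 ± 0.18. The 3 SF3A genes, which encode the complex that joins SF3B to the U2 snRNP, gave 0.15 (Sf3a1), 0.14 (Sf3a2) and 0.22 (Sf3a3).

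U2AF is a heterodimer. U2af2 encodes the large subunit, which binds the polypyrimidine tract and is the subunit known to bind WT1(+KTS). Its signal was 772, 976, 955 and 870.3 in the inputs and 1456, 1155, 873 and 1064 in the eluates. Eluate 1 was the highest array and eluate 3 lay within the inputs. The log2 fold change was 0.33 ± 0.20 (95% interval -0.11 to 0.77, adjusted p = 0.655, limma), with 0.52 within set A and 0.14 within set B. U2af1, the small subunit that reads the AG at the intron end, gave -0.09 (95% interval -0.46 to 0.28). The difference between the subunits was not tested.

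The DEAD/DEAH helicases outside the snRNPs were all tested and all lay above 0, with a median of 0.33 and no call. Dhx38 encodes Prp16, which remodels the spliceosome between its catalytic steps. Its signal was 2851, 3495, 3345 and 2793 in the inputs and 4046, 4312, 3799 and 4231 in the eluates, with no overlap, and the log2 fold change was 0.40 ± 0.16 (adjusted p = 0.459, limma). Within the sets it was 0.39 and 0.41. Ddx5, a helicase of both splicing and transcription, gave 0.45, and Dhx15, which takes the spent spliceosome apart, gave 0.26. Ddx17, the close paralog of Ddx5, read 7425, 9659, 9835 and 9290.2 in the inputs and 10190.2, 9912, 7733 and 9334 in the eluates. These overlapped widely, and the log2 fold change of 0.04 turned to -0.10 without replicate number 1.

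The Prp19-associated genes were at 0.20 and 0.14. Prpf19 encodes the ubiquitin ligase that stabilises the activated spliceosome. It read 8696, 9647, 7759 and 6985 in the inputs and 11180.5, 8335, 7634 and 11258 in the eluates. The high eluates were again 1 and 4, and the difference of 0.20 ± 0.19 did not pass (adjusted p = 0.834, limma). Aqr encodes a helicase that binds introns and was read at a dim probeset, between 93.8 and 119 on the 8 arrays.

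The SR proteins were the only class of members whose median was below 0. Of 7 genes 6 were tested, with log2 fold changes from -0.32 to 0.10, a median of -0.10 and 4 below 0, and none was called. The median was -0.33 without replicate number 4, -0.07 without number 1, -0.0038 without number 3 and 0.03 without number 2, where its sign turned. The median of all tested genes moved too, to -0.12, -0.01, 0.055 and 0.07 in the same order. That of the SR proteins was the lower one in each of these fits. Because numbers 2 and 4 each join arrays of both sets, a fit without number 2 or 4 spreads the sets unevenly over the fractions. A fit without number 1 or 3 keeps them even. Srsf7 has no probeset that carries its name. Srsf10 encodes a splicing repressor that is activated by dephosphorylation. Its representative probeset gave 238, 259, 296 and 249.7 in the inputs and 202, 212, 188 and 233 in the eluates. Every eluate lay below every input, by a small margin, and the log2 fold change was -0.32 ± 0.17 (95% interval -0.70 to 0.06, adjusted p = 0.598, limma). It was -0.19 within set A and -0.44 within set B. The call of this gene as lower came with the set of arrays as the block (adjusted p = 0.0527, in a range over all alternatives of 0.00721 to 1). The other 3 Srsf10 probesets gave -0.08, -0.01 and -0.21, with overlapping fractions.

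Srsf1 encodes SF2/ASF, the founding SR protein. It read 7754, 8724, 7439 and 6186 in the inputs and 6942, 6066, 5099 and 8430.5 in the eluates. Eluate 4 lay above 3 of the inputs, and the log2 fold change was -0.20 ± 0.20 (95% interval -0.65 to 0.26). Srsf3, which encodes the smallest of the SR proteins, gave 736, 655, 592 and 519.6 in the inputs and 515, 474, 479.9 and 757 in the eluates. Here 3 eluates lay below every input and eluate 4 lay above every input. The log2 fold change was -0.19 ± 0.21, and the other 2 Srsf3 probesets gave -0.22 and -0.44. Without replicate number 4, Srsf3 was called lower (adjusted p = 0.146, limma), in a fit in which the median of all genes moved to -0.12. That fit leaves more arrays of set A among the inputs and more of set B among the eluates. Srsf2, or SC35, the classical marker of nuclear speckles, read 11591, 10919, 8305 and 7571 in the inputs and 11329.5, 7874, 6858 and 12462 in the eluates. The arrays of set A read high and those of set B low in both fractions, and the log2 fold change was -0.02 ± 0.21. It turned to 0.02 with quantile normalization. Srsf5 and Srsf6 gave 0.10 and 0.05.

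The SR-related genes, which encode proteins rich in serine and arginine but without the domain order of the SR proteins, lay on the other side of 0. The 4 tested genes ran from 0.19 to 0.60 with a median of 0.35, and none was called. Srrm2 encodes a large scaffold protein of nuclear speckles. It read 809, 535, 974 and 860.2 in the inputs and 1441, 1088, 860.4 and 1430.0 in the eluates. The log2 fold change was 0.60 ± 0.22 (95% interval 0.12 to 1.09, adjusted p = 0.38, limma), but it came from one side: within set A it was 1.12, and within set B it was 0.08. Its second tested probeset, near the filter minimum, gave 0.10. Son, the other large speckle scaffold, gave 0.47, with 0.50 in set A and 0.44 in set B. Srrm1, a coactivator that bridges SR proteins, read 5364, 5588, 4487 and 3850.2 in the inputs and 6110.2, 6041, 4806 and 5516 in the eluates. The fractions overlapped, and the difference was 0.23 ± 0.16 (adjusted p = 0.739, limma). Rbm39, a relative of U2af2, gave 0.19 and 0.33 at its 2 probesets, and input 1 was far below the other inputs at the first. Rbm25, which helps the U1 snRNP to choose between splice sites, has 3 probesets between 44.8 and 106 and was not tested.

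All 5 hnRNP genes were tested. Their median was 0.24, their range 0.00 to 0.46, and none was called. Hnrnpm, whose protein regulates alternative exons from GU-rich sites, had the fractions apart: 5814, 6732, 6188 and 5286 in the inputs and 9912, 7390.2, 7097 and 8767 in the eluates. The set A eluates were the highest, and the difference was 0.46 ± 0.18 (adjusted p = 0.437, limma), with 0.58 within set A and 0.34 within set B. Hnrnpu encodes a nuclear matrix protein that binds chromatin-associated RNA. It was read near the minimum, at 107, 119, 127 and 116 in the inputs and 136, 154, 121 and 145 in the eluates. Eluate 3 overlapped the inputs, and the difference was 0.24 ± 0.17 (adjusted p = 0.716, limma). Hnrnpa2b1, a relative of Hnrnpa1, gave 0.32 and Hnrnpk, which binds C-rich RNA, gave 0.18. Hnrnpa1, the best known antagonist of Srsf1, gave 0.00 with a 95% interval of -0.42 to 0.43.

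Wtap, the member that is named for its binding to WT1, could not be compared. Its 3 probesets read between 47.6 and 86.1 on the 8 arrays, under the minimum in every one. WTAP is known today as the adaptor of the complex that writes m6A onto mRNA. All 7 other genes of that complex were tested, and 1 was called higher, where 1.08% of all tested genes were. This was Zc3h13, which encodes a large scaffold of the complex. The share of all genes is no yardstick for this call, as the gene was picked with earlier results known. Zc3h13 is in the study's own list of enriched mRNAs and was fixed here as a reference gene. It read 409.7, 436, 424 and 373 in the inputs and 1187, 863, 656 and 883 in the eluates. The fractions were far apart, and the log2 fold change was 1.10 ± 0.19 (adjusted p = 0.037, limma), above that of any of the 36 tested splicing members. The call was lost without replicate number 1 (adjusted p = 0.376) or 3 (adjusted p = 0.162), in a range over all alternatives of 1.7e-08 to 0.376. The log2 fold change was 0.95 without number 1 and 1.25 without number 3. Virma, the other large scaffold of the complex, had all eluates above all inputs and gave 0.70 ± 0.19 (adjusted p = 0.245, limma), and the ubiquitin ligase Cbll1 gave -0.05.

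When the members were put on 2 sides, the snRNP, SF3, U2AF, Prp19 and helicase genes on one and the SR, SR-related and hnRNP genes on the other, both medians were above 0. The first side had a median of 0.26 over 21 tested genes, with 18 above 0 and 2 called. The second had 0.18 over 15, with 11 above 0 and none called. The ranges overlapped from -0.09 to 0.60. Without replicate number 1 the medians were 0.17 and 0.02, and without replicate number 4 they were 0.23 and 0.09. The median of all tested genes was -0.01 and -0.12 in these fits. With the set of arrays as the block, 11 genes of the first side were called higher and none lower, and 5 of the second were called higher and 1 lower. In that fit 15.5% of all tested genes were called higher and 14.6% lower. These medians are descriptions of genes that were chosen by name, and no test was made between the sides.

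**Figure D3:**
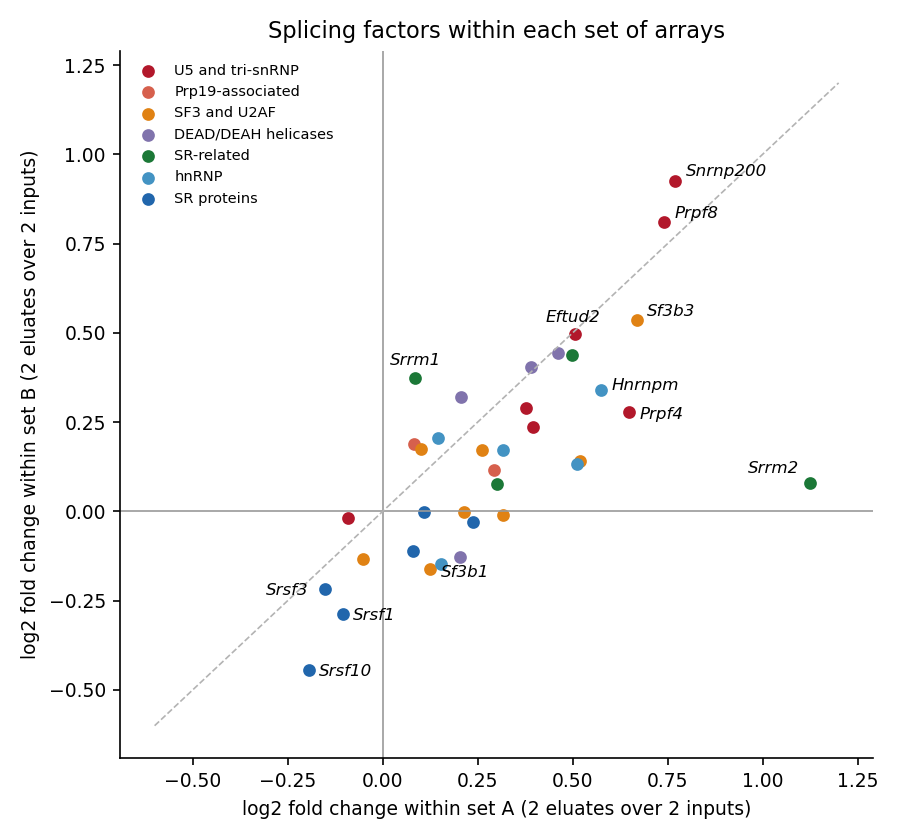
Log2 fold change of the 36 tested members within set A (horizontal, eluates 1 and 4 over inputs 1 and 2) and within set B (vertical, eluates 2 and 3 over inputs 3 and 4), coloured by class, with a dashed line where both are equal. Snrnp200 and Prpf8 lie at the upper right near the line, Srrm2 lies far to the right of it, and Srsf10, Srsf1 and Srsf3 lie at the lower left.

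The fractions were also compared within each set. 28 of the 36 members had the same sign in both sets, as did 100 of the 137 tested genes of the other splicing lists described below. The medians were 0.28 within set A and 0.16 within set B. In 22 of the 36 the log2 fold changes of the sets lay within 0.2 of each other, Prpf8 (0.07 apart), Snrnp200 (0.16 apart) and Dhx38 (0.01 apart) among them. The widest gap was that of Srrm2, at 1.05. Each set holds 2 arrays of each fraction, and no test was made within a set. The share of all tested genes with such agreement is not given here, so these counts only describe the members.

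Agreement between probesets was also checked, for the 17 members with more than 1 tested probeset. In 13 of them all tested probesets had one sign, and in 13 the range between the highest and the lowest log2 fold change was under 0.3. The range was widest in Srrm2, at 0.50. The 2 probesets of Prpf4 and of Eftud2 gave nearly the same value. Probesets of 1 gene read the same labelled RNA and are not replicates of the comparison. The probe sequences were not used here, so where each probeset lies on its transcript is not given. The 37 probesets of members that were not tested ran from -0.44 to 0.17.

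**Figure D4:**
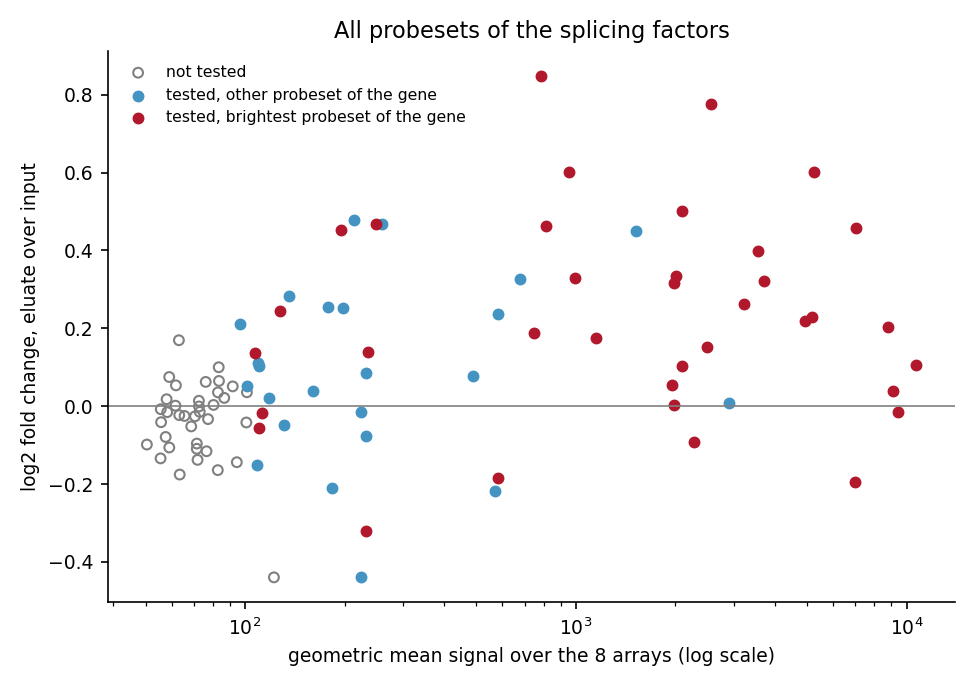
Log2 fold change, eluate over input, of all 97 probesets of members against their geometric mean signal over the 8 arrays (log scale). Red points are the tested probesets that represent a gene, blue points the other tested ones and open grey points the 37 not tested, most of which lie between -0.2 and 0.2.

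Other genes of the splicing pathway were looked at from 5 lists, of which 137 of 181 genes were tested. 2 were called higher, Zc3h13 and Ctnnbl1, and none lower, where 1.08% of all tested genes were called higher and 0.0115% lower. Of these, Zc3h13 was already known as enriched from the study's list. The median log2 fold change was -0.01. At an unadjusted p under 0.05, 21 of the 137 passed, against the same 10.1% of all genes. Ctnnbl1, which encodes a partner of the Prp19 complex, read 1342, 1315, 1187 and 1132 in the inputs and 2020.1, 2249, 1993 and 2248 in the eluates. The fractions were apart, and the difference was 0.78 ± 0.16 (adjusted p = 0.0982, limma). The call was lost without replicate number 1 (adjusted p = 0.488) or 3 (adjusted p = 0.609), in a range over all alternatives of 4e-06 to 0.609. The log2 fold change was 0.84 without number 1 and 0.78 without number 3. The other snRNP proteins, mostly the small Sm and LSm ring proteins, had a median of -0.11 over 32 genes, with 11 above 0. In 6 of these 32 all eluates lay below all inputs, Snrnp27 (-0.49), Lsm3 (-0.47) and Lsm8 (-0.45) among them, against 4.88% of all genes, and the upper end was Snrnp70 (0.30), which encodes the 70K protein of the U1 snRNP. With the set of arrays as the block, 2 of the 32 were called higher and 11 lower, against 15.5% and 14.6% of all genes. The members of the U5 and tri-snRNP class and these other snRNP genes thus had medians on opposite sides of 0, a difference that was not tested.

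The remaining lists lay around 0. The other assembly, catalytic and release factors had a median of 0.03 over 42 genes, from Dnajc8 (-0.43) to Ctnnbl1. The other SR proteins and SR protein kinases had a median of -0.01 over 14 genes, from Rsrc1 (-0.33) to Scaf1 (0.39). The other hnRNP proteins and splicing regulators had a median of -0.04 over 42 genes, from Mbnl1 (-0.55, adjusted p = 0.32, limma) to Raly (0.89, adjusted p = 0.361, limma). The m6A complex without WTAP had a median of 0.06 over its 7 genes.

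**Figure D5:**
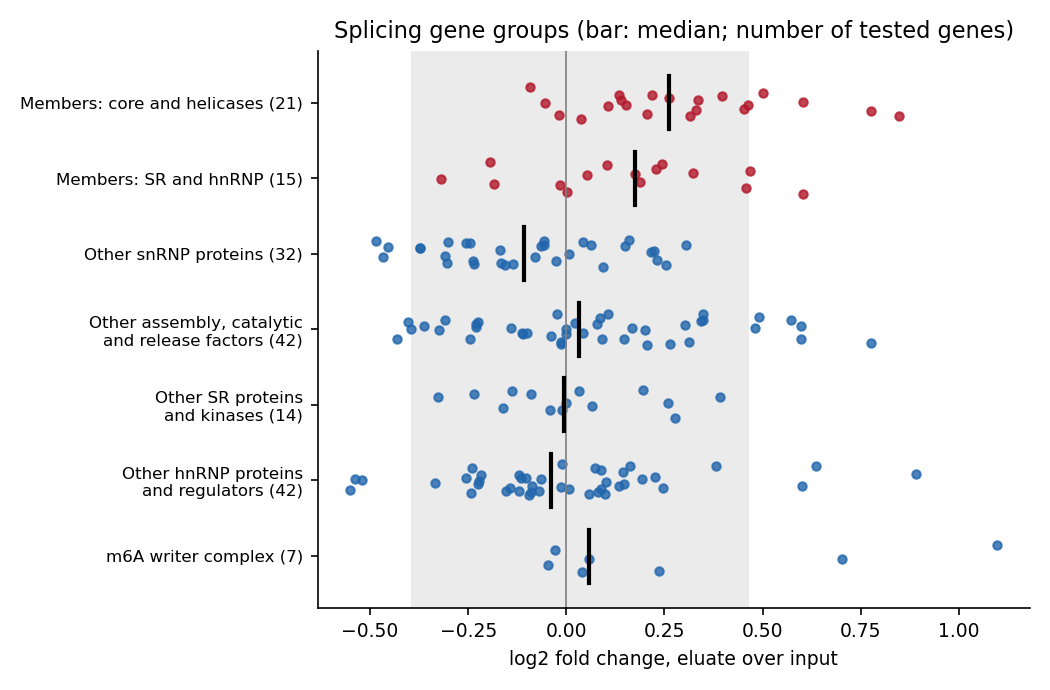
Log2 fold change, eluate over input, of each tested gene (points) and the median (black bar) for the 2 sides of the members in red and the 5 other splicing lists in blue, with the number of tested genes in brackets and the 5th to 95th percentile of all tested genes in grey. Both red medians lie above 0, and that of the other snRNP proteins lies lowest, at -0.11.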

How the data were processed

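The values are the log2 signals in the deposited series table, which the authors made with BeadStudio and Partek 6.4 (submitters' processing notes). How the authors normalized between arrays is not given in the sources used for this report. A further 24 deposited per-sample columns could be matched to no sample's labels and were not used, so a signal filter stands in for the study's detection filter. Probesets were named by the platform annotation, updated through Entrez IDs: 32794 have 1 symbol, 55 several and 13794 none. The log2 signal was fitted with lmFit and eBayes of limma 3.58.1 in R 4.3.3 on fraction and replicate number, with Benjamini-Hochberg adjustment over 13902 probesets. Summaries used Python 3.11.15 with numpy 2.4.6 and pandas 2.3.3, and figures matplotlib 3.10.9. Per the methods the 4 pulldowns were independent, and precision is limited by the 4 arrays per fraction. The fit of this comparison was tested on simulated data with 13902 probesets. A change of 1.5-fold was recovered in 14% of changed probesets, one of 2-fold in 66%, one of 4-fold in 98% and one of 8-fold in 100%. False calls were 14.7% of all calls. The simulated arrays were paired by replicate number and held no sets of arrays, unlike the real ones, so these rates may not hold for the data. The members and lists were chosen with earlier results of these data known. Signals are given for members past the threshold, the 3 highest and 3 lowest log2 fold changes, the brightest member of each class and 8 members fixed by name. Eftud2, Sf3b3, Dhx38 and Ctnnbl1 follow from the calls or non-overlap, and Zc3h13 was a reference gene. Alternatives were no replicate block, quantile normalization, median centring, other filters, trended variance, a stricter threshold, other choices of probeset and leaving out each replicate number, and, added after the data were seen, the set of arrays as the block.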

Additional observations from a re-analysis of the deposited data

Results flagged for a closer look

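Among 92 groups of 4 arrays, each 1 fraction at 1 probeset of a member or named gene, 2 had an array whose gap to its nearest neighbour over the group's range exceeded the 95% critical value of Dixon's test. Chance marks about 5% of groups at this level. Snrnp200 read 1264 on eluate 2, against 980.5 to 995 on the other 3 eluates. Rbm39 read 463 on input 1, against 787 to 820.1 on the other 3 inputs. Neither cause was tested.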

How the results depend on the processing

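The median log2 fold change of the members stayed above 0 under every alternative run, between 0.16 and 0.28. Members called higher numbered 2, against 0 at an adjusted p of 0.05, 6 with no replicate block, 6 with quantile normalization, 16 with the set of arrays as the block, 19 with that block and centred arrays, and 0 to 3 when 1 replicate number was left out. Members called lower numbered 0, against 1 and 2 in the same set fits and 0 to 1 when 1 number was left out. Members with all eluates above all inputs numbered 5, against 9 after centring and 9 after quantile normalization, while the share of all genes moved from 5.29% to 7.76% and 8.37%. Without number 4, the class medians of SF3 and U2AF (0.15) and of the Prp19-associated genes (0.17) were 0.07 and 0.09, and without number 3 that of SF3 and U2AF was 0.25. The median of all tested genes was -0.12 without number 4 and 0.055 without number 3. Leaving out number 2 or 4 spreads the sets of arrays unevenly over the fractions, which leaving out number 1 or 3 does not.

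Over all probesets, 152 were higher, against 420 (centred), 320 (no filter), 497 (no replicate block), 477 (quantile), 2006 (set block), 2507 (set block, centred) and 53 to 395 without 1 number. Lower were 4, against 307, 70, 335, 336, 2118 and 3334 in the same order, 8 with trended variance and 0 to 1079 without 1 number. At least 2-fold higher were 91, against 53 to 127 without 1 number. In the other splicing lists, 2 were higher, against 7 (centred), 5 (no filter), 9 (no replicate block), 7 (quantile), 23 (set block), 29 (set block, centred) and 0 to 6 without 1 number, and 0 were lower, against 4 (centred), 7 (no replicate block), 3 (quantile), 23, 38 and 0 to 12.

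Of 312 values for 26 named genes under 12 alternatives, 8 reversed. When 1 number was left out, Cbll1 ran from -0.088 to 0.0033, Ddx17 from -0.10 to 0.17, Sf3b1 from -0.11 to 0.031, Sf3b2 from -0.03 to 0.21 and Srsf2 from -0.26 to 0.14, and Srsf2 was 0.016 with quantile normalization. The median of all genes was -0.12 without number 4. The cause was not tested for any of these.

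Same-numbered arrays deviated together for numbers 1 (correlation 0.47) and 3 (0.74) but not for 2 (-0.66) and 4 (-0.76), whose arrays lie in different sets. Whether each eluate carries the number of its own input cannot be read from these correlations. The replicate block was kept because the study's methods compare in pairs, and a call that is lost under it is not thereby a smaller effect. The planned comparison with protein length was not run, because no protein table was used here. Probesets near a signal of 100, such as those of Sf3b1, Aqr, Hnrnpu and Prpf31, lie close to the background of the arrays, and the filter on the eluates alone leaves out transcripts above 100 only in the inputs.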
